A study of Homo sapiens with 14 samples.

Results

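SLC25A3, SSR1, REEP1, NUDT16, RFLNB, USP31, MEIOC and SSX2IP are 8 genes that were selected on the size of their fall after knockdown of the coactivator SRC-1 in LY2 breast cancer cells. They are 8 of 19775 genes, and 32 of 54613 probe sets, on the arrays used. All 32 probe sets annotated to them alone are described here, together with the 4 probe sets of NCOA1, the gene of SRC-1 and the target of the siRNA. LY2 is a line derived from MCF-7 that resists anti-estrogens. Every culture had been kept in 10 nM 4-hydroxytamoxifen, then 72 hours without it, and was transfected with 40 nM of siRNA for 24 hours before a treatment of 2 hours. There were 2 arrays of SRC1 siRNA with 100 nM 4-hydroxytamoxifen (replicates 1 and 3) and 4 of control (scrambled) siRNA with it, and 4 arrays of SRC1 siRNA and 4 of control siRNA with the ethanol vehicle, called untreated. All cells came from 1 line and 1 siRNA product was used against SRC-1, so that an effect of the siRNA beyond its target cannot be told apart from the loss of SRC-1. Labels call the replicates biological and say nothing of separate cultures, so the p-values measure the spread between these arrays.

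SRC-1 is recruited by the estrogen receptor and other nuclear receptors and raises transcription of the genes they occupy. Its amount matters in endocrine-resistant breast cancer, where it also serves transcription factors outside the receptor family. The 8 genes belong to no common pathway. SSR1 and REEP1 act at the endoplasmic reticulum, SLC25A3 in mitochondria, NUDT16 on nucleotides and RNA caps, RFLNB and SSX2IP at the cytoskeleton, USP31 on ubiquitin and MEIOC in germ cells.

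Values are log2 signals, 1 for each probe set and array, and a change is the SRC1-siRNA mean minus the control-siRNA mean with its standard error from limma, so that -1 is a halving. An HG-U133 Plus 2.0 array reads a gene by 1 or more sets of short probes, and the signals of different probe sets are not amounts that can be compared. Median signals of single arrays were 3.44 to 3.51, and the number of arrays limits the precision. Of 8 luminal epithelial markers, including ESR1, GATA3 and KRT8, all 8 were above the median signal of all probe sets (3.47). Of the fibroblast markers 1 of 6 was above it (COL1A1), and of the immune and endothelial markers 0 of 5 measured each. As in any bulk sample, fewer cells of a kind and less RNA in each cell cannot be told apart.

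The siRNA target was lower on all 4 probe sets. With tamoxifen, NCOA1 209105_at read 8.82 and 8.41 in SRC1-siRNA cells and 9.80, 10.30, 10.37 and 10.00 in control-siRNA cells. Without tamoxifen it read 9.16, 8.38, 8.34 and 9.14 with SRC1 siRNA, against 9.91, 10.19, 10.31 and 9.92 with control siRNA. No SRC1-siRNA array reached any control-siRNA array in either comparison. The changes of the 4 probe sets ran from -1.50 to -1.11 with tamoxifen and from -1.40 to -1.10 without it. This is the range against which the 8 genes are set.

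Because the genes were chosen by both knockdown comparisons, the following counts and changes describe them and test nothing. With tamoxifen, 16 of the 32 probe sets were lower at a limma adjusted p under 0.05 and 0 were higher, while 7.7% of all probe sets were lower and 5.76% higher. Without SRC1 siRNA tamoxifen replicate 1 the count lower was 8, without all arrays of number 1 it was 6 and without those of number 3 it was 9. In untreated cells 17 were lower and 0 higher, where 5.36% of all probe sets were lower and 4.99% higher, and the count lower was 9 without all arrays of number 2 and 11 without those of number 3. Every SRC1-siRNA array lay below every control-siRNA array for 22 of 32 probe sets with tamoxifen, against 21.1% of all probe sets. In untreated cells this held for 14 of 32, against 8.31% of all. The choice of genes sets these differences from the background, and nothing is read from them. Of the 32 probe sets, 15 were lower in both comparisons and these include at least 1 of each gene, while 14 were lower in neither. Below the median signal of all probe sets lay 6 of the 32, and there low signals limit how far a fall can be seen.

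The standing of the 8 genes as the strongest shared falls held for some of them. Genes with a fall past the threshold on a probe set above the median signal were ranked by their lowest change, 2109 genes with tamoxifen and 1600 without. SLC25A3 ranked 4 with tamoxifen and 8 without, and REEP1 ranked 8 and 7. They were the 2 of the 8 genes within the first 10 of both. The lowest change was taken in each comparison by itself, so the probe set could differ. REEP1 ranked by 204364_s_at with tamoxifen and by 204365_s_at without. Untreated, 204364_s_at changed by -0.99, and with tamoxifen 204365_s_at changed by -1.21. SSX2IP and USP31 also ranked by different probe sets in the 2 comparisons. SSX2IP, MEIOC and USP31 ranked 6, 7 and 10 with tamoxifen but 87, 49 and 375 in untreated cells. SSR1, NUDT16 and RFLNB ranked 35, 43 and 55 with tamoxifen but 9, 6 and 3 in untreated cells. Genes outside the 8 stood among these ranks: ACO1, the cytosolic aconitase, ranked 5 and 1, and the transcription factor NFIA ranked 2 and 2. With tamoxifen DYNC1I2, PKIA and SYNC were also in the first 10, and GXYLT2 came just after USP31 (changes of -1.52 and -1.54). In untreated cells LINC01963 and GFRA1 were in the first 10, and GFRA1 came just after SSR1 (both -1.26). The siRNA target NCOA1 ranked 13 with tamoxifen and 4 without.

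SSR1 is the alpha subunit of the translocon-associated protein complex, which sits beside the channel through which new proteins enter the endoplasmic reticulum. Its 6 probe sets did not move together. With tamoxifen 226712_at read 8.51 and 9.18 in SRC1-siRNA cells and 10.28, 10.02, 9.98 and 9.89 in control-siRNA cells. In the absence of tamoxifen it read 8.79, 8.90, 8.69 and 9.43 with SRC1 siRNA, against 10.40, 10.26, 10.17 and 10.04 with control siRNA. The groups were apart in both comparisons, with changes of -1.20 ± 0.20 and -1.26 ± 0.17 (56.5% and 58.3% lower). Without the arrays of number 1 the change with tamoxifen was -0.79. Probe set 225435_at was likewise apart, with changes of -1.14 ± 0.18 with tamoxifen and -0.96 ± 0.15 without. The other 4 probe sets of SSR1, 200891_s_at with the highest signal among them, changed by -0.13 to 0.09 with tamoxifen and by -0.04 to 0.20 without, and none passed the threshold. One of these, 201894_s_at, has as its listed source a RefSeq transcript of DCN (decorin), so its assignment to SSR1 is uncertain. The listed source of 200891_s_at is a RefSeq transcript of SSR1. Those of the falling 226712_at and 225435_at were not found among the RefSeq transcripts, nor were those of the NCOA1 probe sets.

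REEP1 bends the membrane of the endoplasmic reticulum into tubules and is mutated in a form of hereditary spastic paraplegia. Both of its probe sets were lower. With tamoxifen 204365_s_at read 6.90 and 7.27 in SRC1-siRNA cells and 8.39, 8.42, 8.18 and 8.19 in control-siRNA cells. In untreated cells it read 6.92, 6.59, 6.99 and 7.76 with SRC1 siRNA, against 8.71, 8.51, 8.33 and 8.15 with control siRNA. The groups did not overlap, although untreated SRC1-siRNA replicate 4 came within 0.38 of control replicate 4. The changes were -1.21 ± 0.24 and -1.36 ± 0.20. Probe set 204364_s_at read 4.48 and 4.90 with tamoxifen and SRC1 siRNA, against 6.46, 6.54, 6.04 and 6.18 with control siRNA. Untreated, it read 4.73, 4.75, 4.92 and 5.74, against 6.34, 5.94, 5.99 and 5.82. Its changes were -1.62 ± 0.25 and -0.99 ± 0.20, and again no array of the one siRNA reached the other.

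SLC25A3 carries phosphate into the mitochondrial matrix, where ATP synthase uses it. Its 2 probe sets gave very different readings. With tamoxifen 228971_at read 6.90 and 7.15 in SRC1-siRNA cells and 8.91, 8.79, 8.59 and 8.38 in control-siRNA cells. Without tamoxifen it read 7.21, 7.26, 7.78 and 7.96 with SRC1 siRNA, against 9.15, 8.94, 8.5 and 8.98 with control siRNA. These groups were well apart, with changes of -1.64 ± 0.22 and -1.34 ± 0.18 (67.9% and 60.6% lower). Probe set 200030_s_at, which had the higher signal of both, read 12.97 and 12.96 with tamoxifen and SRC1 siRNA, against 13.08, 13.08, 13.08 and 13.06 with control siRNA. In the absence of tamoxifen it read 12.96, 12.91, 12.91 and 12.99, against 13.07, 13.14, 13.14 and 13.09. All SRC1-siRNA arrays were again lower, with changes of only -0.11 ± 0.05 and -0.17 ± 0.04. Changes of both probe sets differed by 1.53 with tamoxifen and 1.17 without, so the depth of the fall of this gene depends on the probe set read. The listed source of 200030_s_at is a RefSeq transcript of SLC25A3, and 228971_at has no source listed.

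NUDT16 is a nudix hydrolase that clears inosine diphosphates and can remove the cap of RNA. With tamoxifen 228341_at read 8.29 and 7.80 in SRC1-siRNA cells and 9.22, 9.19, 9.20 and 9.09 in control-siRNA cells. In untreated cells it read 7.87, 7.51, 7.57 and 7.81 with SRC1 siRNA, against 8.67, 9.39, 9.41 and 8.85 with control siRNA. Arrays of the 2 siRNAs were separate, with changes of -1.13 ± 0.20 and -1.39 ± 0.16. Probe set 235054_at changed by 0.01 ± 0.10 and -0.09 ± 0.08. Probe set 238515_at had every SRC1-siRNA array above every control-siRNA array, with changes of 0.33 ± 0.11 and 0.25 ± 0.09 that missed the threshold (limma adjusted p = 0.0538 and 0.0890). The dim 235002_at changed by -0.36 ± 0.14 and -0.09 ± 0.11.

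RFLNB, refilin B, binds filamins and helps to arrange actin filaments. With tamoxifen 226905_at read 4.21 and 4.60 in SRC1-siRNA cells and 5.80, 5.54, 5.12 and 5.38 in control-siRNA cells. Untreated, it read 3.89, 3.94, 4.34 and 4.86 with SRC1 siRNA, against 6.05, 5.84, 5.74 and 5.24 with control siRNA. The groups were apart, and untreated SRC1-siRNA replicate 4 was the nearest to the controls. The changes were -1.05 ± 0.27 and -1.46 ± 0.22. Probe set 226876_at, below the median signal, changed by -0.14 ± 0.16 and 0.23 ± 0.13.

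SSX2IP binds afadin at cell junctions and anchors microtubules at centrosomes. Of its 6 probe sets 5 were lower past the threshold in each comparison. With tamoxifen 203018_s_at read 7.52 and 7.59 in SRC1-siRNA cells and 8.04, 8.34, 8.34 and 8.25 in control-siRNA cells. Without tamoxifen it read 7.55, 7.24, 7.24 and 7.67 with SRC1 siRNA, against 8.27, 8.43, 8.23 and 8.04 with control siRNA. The groups were apart in both, with changes of -0.68 ± 0.13 and -0.82 ± 0.11. Probe set 210871_x_at read 5.0 and 5.27 with tamoxifen and SRC1 siRNA, against 6.61, 6.96, 6.76 and 6.70 with control siRNA. In the absence of tamoxifen it read 6.34, 5.56, 6.16 and 6.27, against 6.52, 6.88, 6.67 and 6.64. Its SRC1-siRNA arrays were far below the controls with tamoxifen and closer to them without it, with changes of -1.63 ± 0.18 and -0.60 ± 0.15. Probe sets 203016_s_at, 203017_s_at and 203019_x_at changed by -0.79, -0.69 and -0.97 with tamoxifen and by -0.58, -0.66 and -0.38 without. The suffix x_at marks probe sets whose probes may also match other transcripts. Probe set 203015_s_at changed least, by -0.30 ± 0.16 and -0.21 ± 0.13.

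USP31 is a protease that removes ubiquitin from proteins. In untreated cells its most changed probe set had the smallest change of the 8 genes, and 0 of its 5 probe sets had separate groups, although 3 passed the threshold. Probe set 244441_at read 5.69 and 6.57 with tamoxifen and SRC1 siRNA, against 7.5, 8.06, 7.74 and 7.40 with control siRNA. In untreated cells it read 7.04, 6.67, 6.81 and 7.59, against 7.88, 7.27, 7.19 and 7.23. The groups were apart with tamoxifen (-1.54 ± 0.29) and overlapped without it (-0.37 ± 0.24). Probe set 227256_at, with the highest signal of the gene, changed by -0.73 ± 0.16 and -0.54 ± 0.13, and 226035_at by -0.81 ± 0.19 and -0.56 ± 0.16. For 226033_at the changes were -0.37 ± 0.16 and -0.34 ± 0.13, and for 1558117_s_at they were -0.15 ± 0.17 and -0.48 ± 0.14.

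MEIOC keeps germ cells of the mouse in meiosis together with the RNA-binding protein YTHDC2. Of its 5 probe sets only 1562484_at was above the median signal. With tamoxifen it read 7.51 and 8.02 in SRC1-siRNA cells and 9.47, 9.53, 9.29 and 9.27 in control-siRNA cells. Untreated, it read 7.83, 8.10, 8.52 and 8.80 with SRC1 siRNA, against 9.61, 9.31, 8.95 and 9.03 with control siRNA. The groups were wide apart with tamoxifen and narrowly apart without it, with changes of -1.62 ± 0.24 and -0.91 ± 0.20. The other 4 probe sets of MEIOC changed by -0.23 to 0.07 with tamoxifen and by -0.12 to 0.03 without, and none passed.

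**Figure D1:**
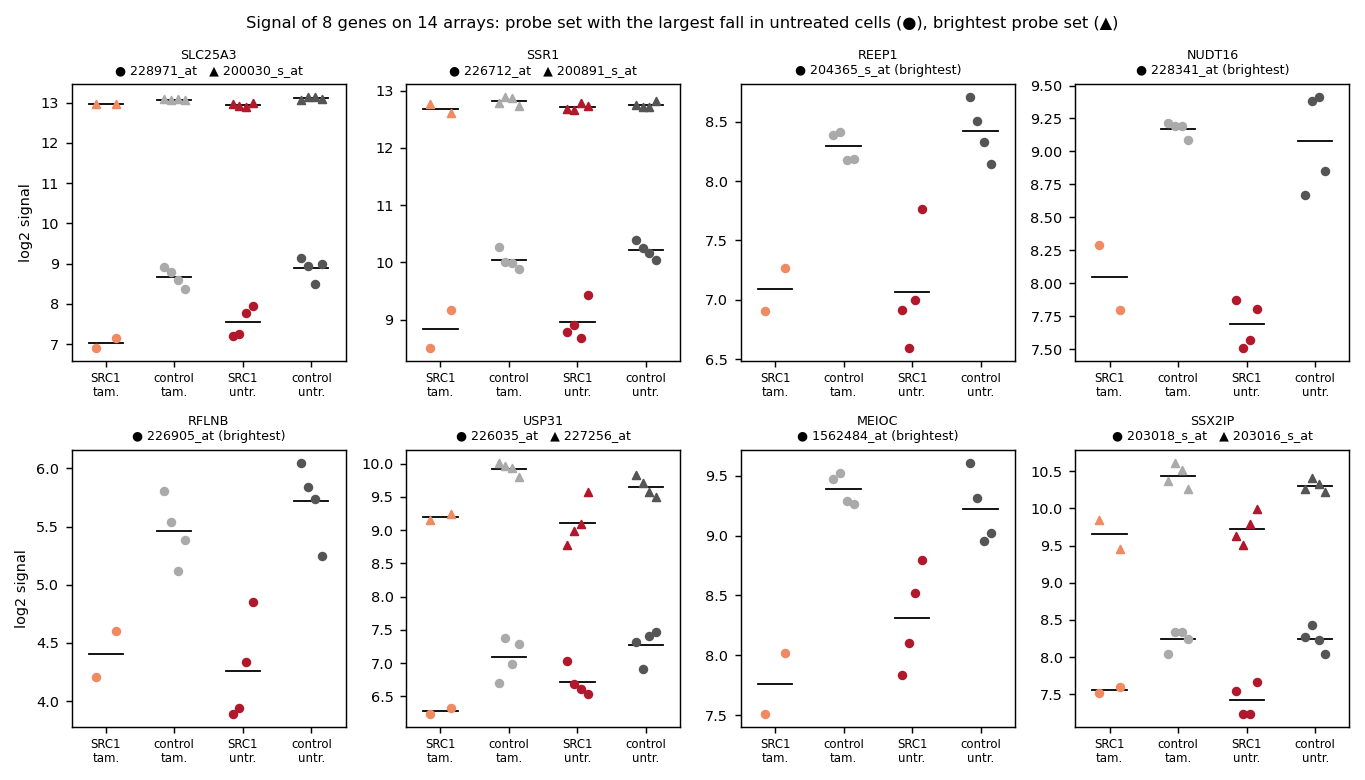
Log2 signal of each of the 8 genes on the 14 arrays, by group (SRC1 or control siRNA; tam., tamoxifen; untr., untreated), with the group mean as a line. Circles are the probe set with the largest fall in untreated cells and triangles, where it differs, the probe set with the highest signal: for SLC25A3 and SSR1 the circles separate the siRNAs and the triangles lie nearly level.

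Set beside the siRNA target, the most changed probe set of 7 of the 8 genes differed with tamoxifen by at least as much as the least changed NCOA1 probe set, and RFLNB by less (-1.05 against -1.11). In untreated cells 5 of the 8 did, namely RFLNB, NUDT16, REEP1, SLC25A3 and SSR1, while MEIOC, SSX2IP and USP31 changed by -0.91, -0.82 and -0.56, less than any NCOA1 probe set. A change beyond that of every NCOA1 probe set was seen in 5 genes with tamoxifen (SLC25A3, SSX2IP, MEIOC, REEP1 and USP31) and in RFLNB alone without it. With tamoxifen the differences from the most changed NCOA1 probe set were only -0.04 (USP31) to -0.14 (SLC25A3). For RFLNB without tamoxifen the difference was -0.06. Each was smaller than the standard error of the gene's own change. The comparison is between the most changed of several probe sets of each gene, which favours genes with many. By the probe set with the highest signal, only MEIOC of these 5 genes passed NCOA1 with tamoxifen. REEP1, SSX2IP, USP31 and SLC25A3 did not (-1.21, -0.79, -0.73 and -0.11). The most and least changed probe sets of a gene differed by 1 or more, on the log2 scale, in 6 of the 8 genes with tamoxifen and 4 of the 8 without. In MEIOC with tamoxifen and in RFLNB without it, the least changed probe set lay below the median signal, where a fall is harder to see. For NCOA1, whose probe sets were all above the median signal, the difference between probe sets was 0.39 and 0.31.

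**Figure D2:**
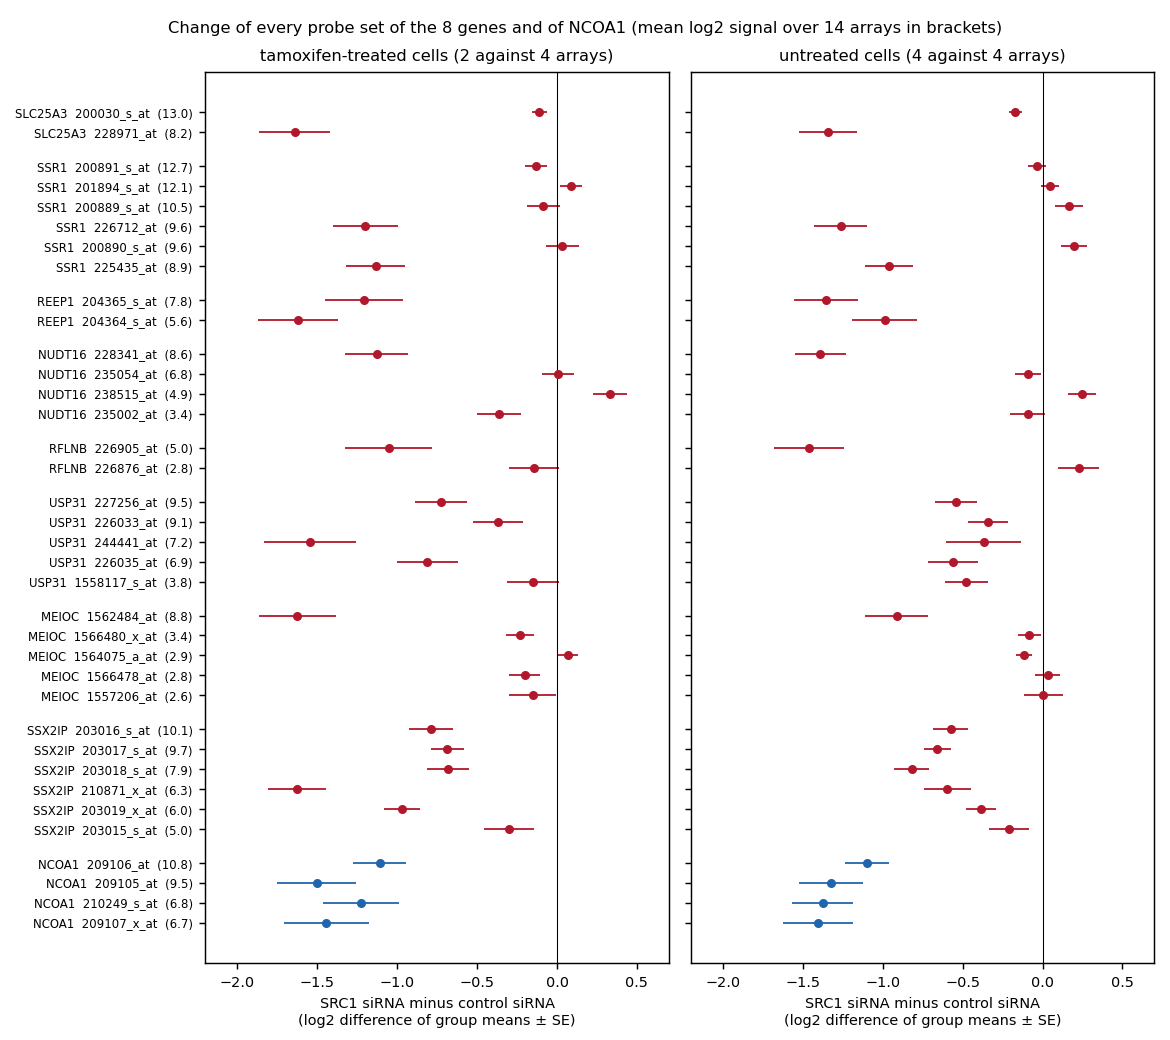
Change of every probe set of the 8 genes (red) and of NCOA1 (blue) as SRC1 siRNA minus control siRNA on the log2 scale with its standard error, in tamoxifen-treated cells (left) and untreated cells (right). The 4 NCOA1 probe sets lie between -1.50 and -1.11 on the left and between -1.40 and -1.10 on the right. SLC25A3, SSR1, NUDT16, RFLNB and MEIOC each have at least 1 probe set near 0, as does USP31 on the left.

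The size of the fall differed between arrays of different replicate numbers. The NCOA1 mean over its probe sets differed between the 2 siRNAs by -0.94 and -1.70 for numbers 1 and 3 with tamoxifen, and by -0.80, -1.60, -2.0 and -0.79 for numbers 1 to 4 without it. Its fall was thus deepest at number 3 in untreated cells. NUDT16 228341_at was also deeper at number 3 than at number 1, with -0.93 and -1.40 with tamoxifen and -0.80, -1.88, -1.84 and -1.04 without, so that numbers 2 and 3 were the deepest. SSX2IP 203018_s_at differed by -0.52 and -0.75 with tamoxifen and by -0.73, -1.19, -1.0 and -0.37 without.

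The opposite order of numbers 1 and 3 was seen in SLC25A3 228971_at, which differed by -2.01 and -1.44 with tamoxifen and by -1.94, -1.69, -0.72 and -1.03 without. RFLNB 226905_at differed by -1.59 and -0.52 with tamoxifen and by -2.16, -1.90, -1.40 and -0.39 without. MEIOC 1562484_at differed by -1.96 and -1.27, and by -1.77, -1.21, -0.43 and -0.23. In these 3 genes number 1 was the deepest in both treatments, where NCOA1 had one of its smaller falls. SSR1 226712_at was also deeper at number 1 than at number 3, with -1.77 and -0.81 with tamoxifen and -1.60, -1.36, -1.48 and -0.61 without. So was REEP1 204365_s_at, with -1.49 and -0.91 with tamoxifen and -1.79, -1.91, -1.34 and -0.38 without. USP31 226035_at differed by -0.47 and -0.67 with tamoxifen and by -0.28, -0.23, -0.79 and -0.93 without, with number 3 deeper than number 1. In its probe set 1558117_s_at number 3 was also lower than number 1 in both treatments, and in 226033_at the order turned between treatments. Its other probe sets 227256_at and 244441_at had number 1 deeper than number 3. For 227256_at the differences were -0.85 and -0.69 with tamoxifen and -1.05, -0.71, -0.48 and 0.07 without. For 244441_at they were -1.81 and -1.16 with tamoxifen and -0.84, -0.61, -0.39 and 0.36 without, so that at number 4 neither was lower with SRC1 siRNA.

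Of the 17 probe sets lower in untreated cells, 8 had the larger fall at number 1 in both treatments and 6 had it at number 3 in both. For 3 probe sets, all of SSX2IP, the order turned between treatments. The same number thus had the larger fall in both treatments for 14 of 17 (82.4%), against 1611 of 2929 (55.0%) of all probe sets lower in untreated cells. The genes were chosen by the size of these same knockdown differences, and several of the 17 belong to the same gene. Nothing is therefore read from 14 of 17 against the share of all. These orders rest on 1 array of each group at each number and were not tested. Once group means were removed, arrays that share a number were negatively correlated over all probe sets (18 pairs, r of -0.58 to -0.042), and the part of this in the differences by number was not tested. Whether differences between numbers had been removed before deposit was not tested either, and p-values here take the arrays as independent.

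**Figure D3:**
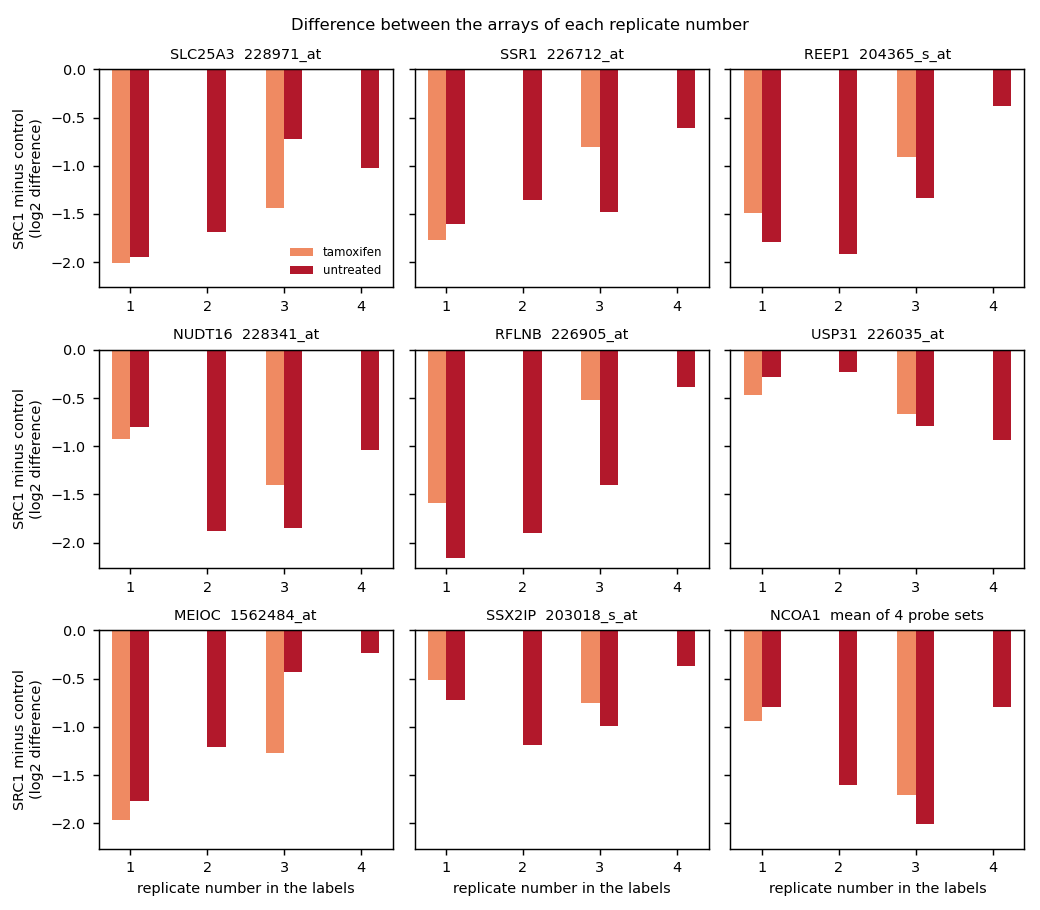
SRC1-siRNA minus control-siRNA log2 signal between the arrays of each replicate number for the probe set of each gene with the largest fall in untreated cells, and for the mean of the 4 NCOA1 probe sets; light bars are tamoxifen-treated cells, which have numbers 1 and 3 only, and dark bars untreated cells. NCOA1 and NUDT16 are deeper at number 3 than at number 1 and SLC25A3, RFLNB and MEIOC the reverse.

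Changes with tamoxifen are also a description, because they are differences between the same arrays that chose the genes. The choice itself favours low values on the SRC1-siRNA tamoxifen arrays. In SRC1-siRNA cells 1 of the 32 probe sets was past the limma threshold with tamoxifen against untreated (9 had an unadjusted p under 0.05), where 1.51% of all probe sets passed. This was SSX2IP 210871_x_at, whose 2 tamoxifen arrays (5.0 and 5.27) were below its 4 untreated arrays (5.56 to 6.34), with a change of -0.95 ± 0.18. SSX2IP ranked high among the falls by these same 2 tamoxifen arrays (6, against 87 in untreated cells). The change of 210871_x_at was not past the threshold without SRC1 siRNA tamoxifen replicate 1, without untreated SRC1-siRNA replicate 1, 3 or 4, or without all arrays of number 1, 3 or 4. The other 5 SSX2IP probe sets changed by -0.25 to 0.13 and did not pass. USP31 244441_at had a change of -0.89 ± 0.29 that did not pass.

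In control-siRNA cells 0 of the 32 probe sets passed with tamoxifen in limma, and 2 had an unadjusted p under 0.05, where 0.163% of all probe sets passed. The most positive change was that of SSX2IP 203019_x_at, at 0.34 ± 0.09. Changes of the 32 ran from -0.26 to 0.34 in control-siRNA cells, and from -0.95 to 0.36 in SRC1-siRNA cells. NCOA1 changed by -0.14 to 0.18 in SRC1-siRNA cells and by 0.00 to 0.17 in control-siRNA cells, and 0 of its 4 probe sets passed in limma (0 with an unadjusted p under 0.05 in each).

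Whether the knockdown change itself differed between treatments is given as a description, since the choice of genes used both of its parts. The difference, tamoxifen minus untreated, passed for 0 of 32 probe sets in limma (5 with an unadjusted p under 0.05), where 0.28% of all passed. It was most negative for USP31 244441_at (-1.18 ± 0.37), SSX2IP 210871_x_at (-1.03 ± 0.23) and MEIOC 1562484_at (-0.71 ± 0.31). For RFLNB 226905_at it was 0.41 ± 0.35 and for NUDT16 228341_at 0.26 ± 0.25.

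**Figure D4:**
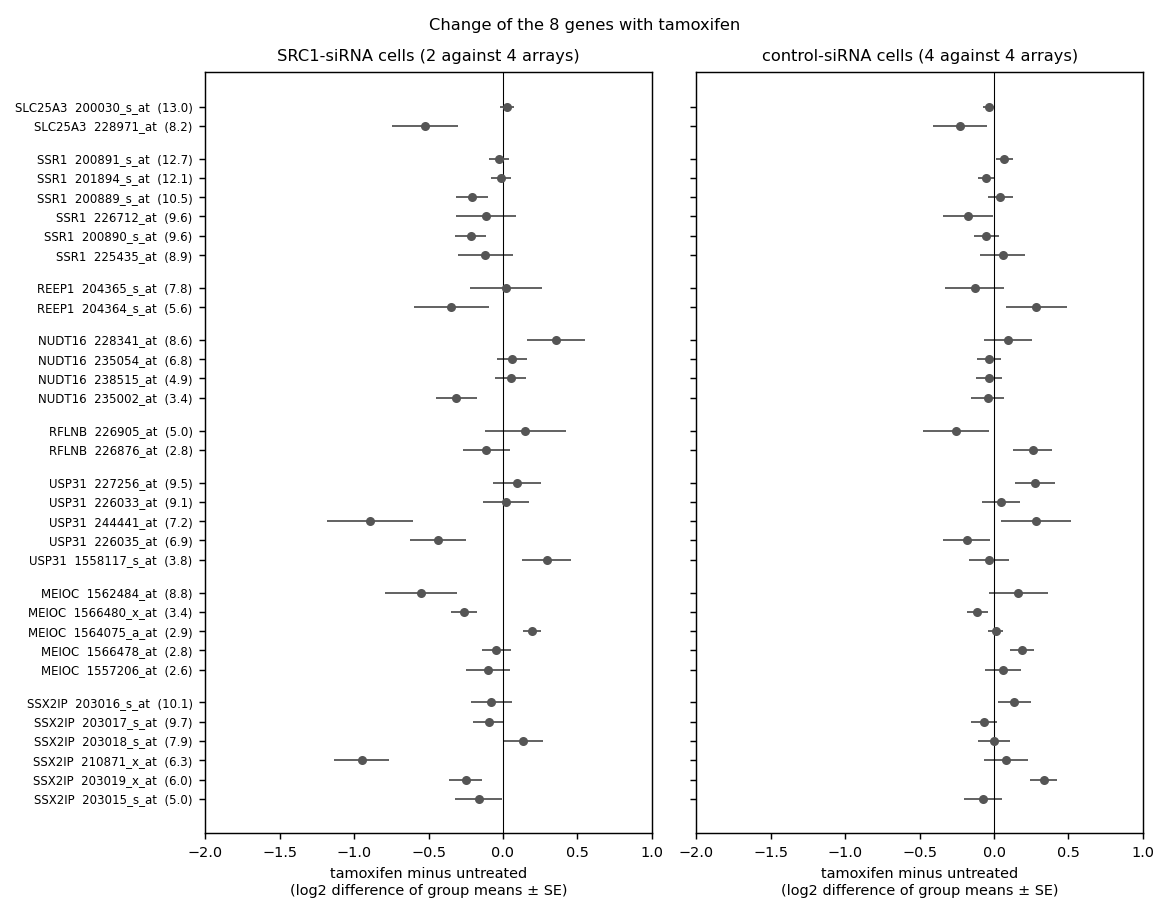
Change of the 32 probe sets of the 8 genes as tamoxifen minus untreated on the log2 scale with its standard error, in SRC1-siRNA cells (left) and control-siRNA cells (right). SSX2IP 210871_x_at has the most negative change, at -0.95 on the left, and lies at 0.08 on the right.

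Partners and relatives of the 8 genes were read from lists, each gene by its probe set with the highest signal, and counted where they passed in limma over all probe sets. Of all genes read this way, 6.49% were higher and 8.71% lower with tamoxifen, and 5.97% higher and 5.98% lower without, against which the counts of each list are to be read. The median change of all probe sets was -0.024 with tamoxifen and -0.0038 without. Of 17 translocon genes 0 rose and 1 fell with tamoxifen, and 1 rose and 2 fell without (list medians 0.0048 and 0.010). SEC63, which helps to pull proteins through the channel, fell by 0.52 ± 0.08 and 0.32 ± 0.06, and the signal recognition particle receptor subunit SRPRA rose by 0.33 ± 0.09 in untreated cells. Of 14 genes that shape the endoplasmic reticulum 0 rose and 3 fell with tamoxifen, and 0 rose and 4 fell without, with medians of -0.16 and -0.20. The membrane-fusing GTPase ATL3 fell by 0.43 ± 0.07 and 0.37 ± 0.06, and LNPK, which sits at junctions of tubules, fell by 0.59 ± 0.11 and 0.37 ± 0.09. REEP6, a relative of REEP1, fell by 0.50 ± 0.08 in untreated cells.

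Of 24 mitochondrial carriers 1 rose and 3 fell with tamoxifen, and 1 rose and 1 fell without (medians -0.13 and -0.041). The ornithine carrier SLC25A15 fell by 0.52 ± 0.10 and 0.30 ± 0.08, and the iron carrier SLC25A28 rose by 0.55 ± 0.15 and 0.44 ± 0.13. Of 19 nudix hydrolases 0 rose and 5 fell with tamoxifen, and 0 rose and 3 fell without (medians -0.087 and -0.012). The inositol pyrophosphate phosphatases NUDT3 and NUDT4 were among them. NUDT3 changed by -0.80 ± 0.14 and -0.74 ± 0.11, and NUDT4 by -0.72 ± 0.20 and -1.05 ± 0.17. The decapping enzyme DCP2 fell by 0.50 ± 0.08 and 0.25 ± 0.07.

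Filamins were not analysed here, and of 7 genes of the same list that link the nucleus to the cytoskeleton (SYNE1, SYNE2, SYNE3, SUN1, SUN2, LMNA and EMD) LMNA rose with tamoxifen (0.32 ± 0.08) and 0 fell, and 0 passed without it in limma. Of 39 ubiquitin-specific proteases 2 rose and 3 fell with tamoxifen, and 2 rose and 4 fell without. USP48 fell by 0.36 ± 0.07 and 0.35 ± 0.06. Of 16 meiosis genes the recombinase DMC1 fell with tamoxifen (-0.79 ± 0.13), and the cohesin subunit SMC1B, dim in all groups, fell without (-0.37 ± 0.09). Of 18 centrosome and afadin junction genes 3 rose and 1 fell with tamoxifen, and 2 rose and 0 fell without. The afadin-binding nectins NECTIN2 and NECTIN4 rose, by 0.45 ± 0.10 and 0.29 ± 0.07 with tamoxifen and by 0.30 ± 0.08 and 0.49 ± 0.06 without. Medians of these 4 lists lay between -0.092 and 0.094.

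The genes whose pattern over the 14 arrays was most like the mean of the 8, each read by its probe set with the highest signal and centred on its mean, were found among 12264 genes. The root mean square difference from that mean was 0.099 on the log2 scale for CBX5, 0.11 for ARHGEF6, 0.11 for CMTM4, 0.11 for SLC26A2 and 0.11 for FITM2. For NUDT3, SLC46A1 and EMSLR it was 0.12. The mean of the 8 changed by -0.85 with tamoxifen and -0.81 without. It includes the probe sets of SLC25A3 and SSR1 with the highest signal, which changed little. These changed by -0.11 and -0.13 with tamoxifen and by -0.17 and -0.04 without. CBX5, a heterochromatin protein, changed by -0.92 and -0.82, and the sulfate transporter SLC26A2 by -0.97 and -0.82.

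The promoters are shown because each gene had at least 1 probe set that was lower in both of the comparisons that chose the genes. Whether the genes share a regulator was not tested. RefSeq windows (GRCh38.p14) were available for 6 of the 8, with 8 windows in all, and RFLNB and USP31 were not among them. The 250 bases before the start are given 5′ to 3′ on the strand of the gene, 1 window for each gene, and that of SSX2IP does not precede its outermost start. Capitals mark matches, on either strand, to the CCAAT box, the GC box (GGGCGG), the E-box (CACGTG) or TGANTCA, a pattern wider than the AP-1 site.
SLC25A3, chr12:98593436-98593685, strand +: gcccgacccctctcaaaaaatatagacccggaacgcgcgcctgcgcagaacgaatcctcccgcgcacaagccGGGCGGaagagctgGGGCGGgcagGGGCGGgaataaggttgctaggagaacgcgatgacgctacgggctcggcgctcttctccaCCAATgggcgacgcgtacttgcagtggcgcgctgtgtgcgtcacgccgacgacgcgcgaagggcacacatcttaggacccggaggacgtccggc
SSR1, chr6:7313200-7313449, strand -: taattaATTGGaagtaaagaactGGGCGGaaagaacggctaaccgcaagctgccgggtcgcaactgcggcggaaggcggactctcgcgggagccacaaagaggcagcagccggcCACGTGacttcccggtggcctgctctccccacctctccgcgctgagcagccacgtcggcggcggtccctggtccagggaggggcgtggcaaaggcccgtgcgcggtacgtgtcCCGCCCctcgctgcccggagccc
REEP1, chr2:86338084-86338333, strand -: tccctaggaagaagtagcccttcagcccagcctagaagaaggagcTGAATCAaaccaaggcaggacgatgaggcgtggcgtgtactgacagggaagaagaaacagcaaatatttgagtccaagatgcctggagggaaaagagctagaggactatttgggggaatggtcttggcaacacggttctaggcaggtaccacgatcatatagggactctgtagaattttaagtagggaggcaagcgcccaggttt
NUDT16, chr3:131381421-131381670, strand +: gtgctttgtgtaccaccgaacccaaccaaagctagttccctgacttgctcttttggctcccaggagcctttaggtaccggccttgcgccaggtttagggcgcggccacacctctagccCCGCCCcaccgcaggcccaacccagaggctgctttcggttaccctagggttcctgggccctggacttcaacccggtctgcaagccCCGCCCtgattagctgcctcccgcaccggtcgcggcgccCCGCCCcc
MEIOC, chr17:44656218-44656467, strand +: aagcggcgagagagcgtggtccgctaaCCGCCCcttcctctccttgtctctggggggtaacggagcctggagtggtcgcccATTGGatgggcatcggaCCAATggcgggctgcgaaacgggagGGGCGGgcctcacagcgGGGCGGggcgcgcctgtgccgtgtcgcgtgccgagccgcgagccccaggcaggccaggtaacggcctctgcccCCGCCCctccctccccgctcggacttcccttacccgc
SSX2IP, chr1:84690462-84690711, strand -: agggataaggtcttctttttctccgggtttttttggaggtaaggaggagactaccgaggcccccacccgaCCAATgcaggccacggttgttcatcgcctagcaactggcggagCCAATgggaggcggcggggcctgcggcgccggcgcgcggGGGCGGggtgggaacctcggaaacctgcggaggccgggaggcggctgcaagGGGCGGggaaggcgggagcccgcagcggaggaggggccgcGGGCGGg
The CCAAT box was in 6 of the 8 windows, against 32.0% of 35116 windows of all genes, and the GC box GGGCGG in 7 of the 8, against 42.6%. These counts include the second windows of REEP1 and NUDT16, which are not shown. The CCAAT boxes of both genes and the GC boxes of REEP1 were in those second windows only. The E-box CACGTG was in the SSR1 window (6.34% of all) and the pattern TGANTCA in the REEP1 window shown (6.57%). This pattern takes any base at N, where the AP-1 site has C or G. The REEP1 match was TGAATCA and is not counted as an AP-1 site. The nuclear receptor sequence AGGTCA was in 0 of 8 (12.1% of all), as were TATAAA (10.7%) and TGACGTCA (1.65%). In the second window of REEP1, 1 CCAAT and 1 GC box overlapped, and both windows of NUDT16 overlap each other. The GC content was 50% in the REEP1 window shown and 65.6% to 72.0% in the other 5, where the median of all windows was 58.0%.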

How the data were processed

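The files held 1 log2 signal for each of 54675 probe sets on each of 14 HG-U133 Plus 2.0 arrays, as the authors deposited them. The log2 base was taken from the range of the values. Per the labels' protocols, a NuGEN Ovation kit amplified the RNA before biotin labelling. R 2.9.2 is named in the submitters' processing notes, and how background was corrected, arrays were normalized and probes were summarised is not given in sources used here. Values were used as deposited, and 62 array controls were left out. Of the 54613 probe sets left, 41091 carried 1 symbol, 1801 several and 11721 none in the platform annotation.

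Groups came from the labels. With limma 3.58.1 in R 4.3.3 (and statmod 1.5.0), 1 model of 4 group means was fitted to the 14 arrays, so that the 2 arrays of SRC1 siRNA with tamoxifen share the spread of the other groups. P-values are two-sided and adjusted by Benjamini-Hochberg over 54613 probe sets, with a threshold of 0.05. Tested on simulated data of this design, the code found, for tamoxifen in SRC1-siRNA cells, 46% of the changed probe sets at a log2 change of 0.5 and 92% at 1 (9 false of 176 calls). In control-siRNA cells the tamoxifen figures were 68% and 94% (7 false of 187).

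The 8 genes, the lists and the tests were chosen with earlier results of these data known. Named are the 8 genes and NCOA1 with all probe sets, up to 3 passing genes of each list and comparison, genes ranked among the 10 largest falls, and the 8 most alike genes. GXYLT2 was named after its value was seen. Alternatives were quantile normalization, the replicate number as a block, a filter on dim probe sets, centring on array medians, trend and robust eBayes, array weights, only the arrays compared, the mean over the probe sets of a gene, and leaving out each array or number.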

Additional observations from a re-analysis of the deposited data

Results flagged for a closer look

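Among the probe sets of the 8 genes and of NCOA1, 5 of 108 groups of 4 arrays had 1 array whose gap to its nearest neighbour took up more of the group's range than the critical value of Dixon's test allows. Chance flags about 1 in 20 groups. NUDT16 235054_at had its lowest untreated SRC1-siRNA value in replicate 1, at 6.53, with the next at 6.80. USP31 244441_at had its highest untreated control-siRNA value in replicate 1, at 7.88, with the next at 7.27. In control-siRNA cells with tamoxifen, SSR1 201894_s_at was lowest in replicate 1, at 11.9 (11.89 with 12.05 next), and USP31 1558117_s_at was lowest in replicate 1 too, at 3.59, with 4.03 next. SSX2IP 203017_s_at was highest there in replicate 2, at 10.06, with 9.92 next. None of these 5 was a circle in the plot of signals by array.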

How the results depend on the processing

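Single changes were followed for 2 kinds of probe set of each of the 8 genes and NCOA1. These were the one with the highest signal and the one with the largest fall in each knockdown comparison. SSX2IP 210871_x_at with tamoxifen in SRC1-siRNA cells was followed too. None of these that passed in the main fit turned in direction under any alternative, and other named changes were not followed singly. The knockdown changes were judged by size and not by call, and lost calls show in the counts of the 32 below. Of 779 values of single changes under an alternative 732 counted as the same and 37 moved by more than the spread between arrays. In 10 SSX2IP 210871_x_at was no longer past the threshold with tamoxifen. Knockdown changes counted as the same if they moved by less than that spread, and SSX2IP 210871_x_at with tamoxifen if it stayed past the threshold. Arrays of the same number did not resemble each other: after removal of group means the 18 correlations ran from -0.585 to -0.0421 (median -0.334), and 0 of 14 arrays correlated best with its own number. The number was therefore not taken as a pairing. With the replicate number as a block, 1224 probe sets passed for the knockdown with tamoxifen (7350 without the block) and 2154 in untreated cells (5653), and of the 32 probe sets 11 were lower in each (16 and 17). For tamoxifen, 0 passed with the block in SRC1-siRNA cells (824 without it) and 1 in control-siRNA cells (89), and SSX2IP 210871_x_at was not past the threshold (limma adjusted p = 0.203). In a fit of only the arrays compared, 4025 passed for the knockdown with tamoxifen, 109 for tamoxifen in SRC1-siRNA cells and 2 in control-siRNA cells. For tamoxifen, array weights gave 371 in SRC1-siRNA cells and 232 in control-siRNA cells, leaving out dim probe sets 246 in SRC1-siRNA cells, and median centring 35 in control-siRNA cells. The 1 member probe set passing in SRC1-siRNA cells became 0 with the block, with array weights and with only the arrays compared. The median of the 7 genes linking nucleus and cytoskeleton in untreated cells was 0.094 and became 0.0048 when probe sets of a gene were averaged. The cause of these moves was not tested.

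Leaving out each array or number gave 1183 to 7215 probe sets for the knockdown with tamoxifen and 1953 to 5750 without, with 6 to 17 and 9 to 17 of the 32 lower. The lowest counts of the 32 came without number 1 (6 with tamoxifen) and without number 2 (9 untreated), and 8 were lower with tamoxifen without SRC1 siRNA tamoxifen replicate 1. For tamoxifen the ranges were 3 to 879 in SRC1-siRNA cells (0 to 1 of the 32) and 0 to 68 in control-siRNA cells (0 to 0). The number of arrays limits the precision, and the SRC1-siRNA tamoxifen group has 2.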
